A study of Mus musculus with 42 samples.

Results

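The loss of mRNA in WT and TTP-deficient (ΔM) macrophages was compared at 3 h of LPS, at the onset of the inflammatory response. The comparison rested on 18 RNA-Seq libraries in 6 groups, namely each genotype at 0, 45 and 90 min of actinomycin D (ActD), with 3 biological replicates per group. Of the 21951 genes with an expression value, 12558 had a decay rate, and the 6921 of these with a mean of at least 5 FPKM over both genotypes at LPS 3 h were described. The rule used expression only, but from the 0 min libraries, which also enter the decay rates, so it was not independent of them. Because it used the mean, a member could pass through 1 genotype alone, as Gdf15 did at 3.66 (WT) and 12.21 (ΔM) FPKM. At the edge of the rule, Tsc2 and Echdc1 stood at a mean of 5 FPKM and were kept, with differences in loss of 0.01 and -0.14. Atrn at 4.995 FPKM and Gm17103 at 4.99 FPKM were left out, with differences of 0.26 and 1.09.

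Both groups were bone marrow-derived macrophages (BMDMs) of C57BL/6 mice aged 7 to 9 weeks, grown with CSF-1 from L929 cells. The ΔM cells lack Zfp36, the gene of TTP, by Cre expression from the myeloid LysM promoter, and the labels give their genotype as TTP-/-. The WT cells came from littermates. Zfp36 stood at 1017 (WT) and 16.3 (ΔM) FPKM at LPS 3 h. All cells received 10 ng/ml LPS, the bacterial ligand of TLR4, for 3 h, after which the medium was exchanged for fresh medium with 5 µg/ml ActD to stop transcription. The values for LPS 6 h came from other libraries of the same design.

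TTP is an RNA-binding protein with a pair of zinc fingers that recognise AU-rich elements, U-rich stretches with the core UAUUUAU, in 3′ UTRs. Once bound, it recruits deadenylases, which shorten the poly(A) tail and open the mRNA to decay. In macrophages it limits the output of cytokine and chemokine mRNAs such as Tnf, and its activity is restrained by p38 MAPK signalling early after LPS. When transcription is blocked, a target that depends on TTP is lost more slowly in cells without it.

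Each genotype and LPS time had 1 deposited decay rate per gene, the slope of log2 FPKM over 0, 45 and 90 min of ActD. Values of single libraries, their spread and their depth were not in the tables used here, so no test was made, and every count is a description of fitted rates. The rates are given as log2 change over 90 min, and the difference in loss as the change in ΔM minus the change in WT, so that a positive value means slower loss in ΔM. FPKM is scaled per library, so a rate is relative to the other transcripts, and a value above 0 means that a transcript's share of the library grew during ActD. In bulk RNA, fewer cells of a type and less RNA per cell cannot be told apart.

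TTP crosslink sites in the 3′ UTR, mapped by the study in WT macrophages with PAR-iCLIP, give the sequences behind the comparison. The following, picked for mRNAs named below, are the strongest site of each gene or up to 30 bases of it, read 5′ to 3′ on the transcript, with NCBIM37 (mm9) coordinates. The first 11 belong to mRNAs lost more slowly in ΔM at LPS 3 h and the last 4 to mRNAs with a site and a deposited difference under 0.5. Capitals mark TATTTAT, with T for the U of the RNA, or ATTTA in Ier3 and Socs3, whose sites hold no TATTTAT. The sites of Cxcl1 and Dusp1 hold neither and stand for sites without the motif in other slower mRNAs, Fos and Socs1 among them. The Tnf site, and that of Fos, which is not printed, come from the list mapped at LPS 6 h, and all others from the list at LPS 3 h.
Tnf (chr17:35336623-35336652, minus strand): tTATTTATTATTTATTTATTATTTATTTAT
Ier3 (chr17:35959430-35959442, plus strand): taattaatATTTA
Socs3 (chr11:117827425-117827436, minus strand): gtaATTTAtaat
Ppp1r15a (chr7:52778326-52778355, minus strand): tagtttcctatTATTTATTTATTTATTTAT
Cish (chr9:107203708-107203737, plus strand): tatacagTATTTATTTATTTATtctccttg
Il10ra (chr9:45062197-45062226, minus strand): cttTATTTATTTATttgctcactTATTTAT
Irf1 (chr11:53590609-53590625, plus strand): ttgcattTATTTATata
Cxcl1 (chr5:91321613-91321629, plus strand): tatacaatttcttttga
Zfp36 (chr7:29161956-29161985, minus strand): tttattgtattaagattttatagTATTTAT
Cxcl2 (chr5:91334354-91334383, plus strand): attTATTTATctatgTATTTATTTATTTAT
Dusp1 (chr17:26642632-26642653, minus strand): acagttgtatgtttgtttattt
Ptgs2 (chr1:151952948-151952975, plus strand): aatttaatttaattatttaaTATTTATa
Ccl4 (chr11:83478043-83478072, plus strand): tattatttctatTATTTATgttttagttat
Ccl3 (chr11:83461516-83461545, minus strand): attgtcatacttgtatttgtgacTATTTAT
Plek (chr11:16872589-16872612, minus strand): tctactttatataTATTTATcact

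Before the single mRNAs, a trend with base composition has to be given, since it ran through all rates at LPS 3 h. Across the 6402 members with an annotated coding transcript, the difference in loss rose with the GC content of the transcript (Spearman rho 0.59 across genes, which share the same libraries). When the members were cut into 10 classes of GC content, the GC-poorest class had a median difference of -0.41, with 1 mRNA lost more slowly and 237 lost faster in ΔM by at least 0.5. The GC-richest class had a median of 0.36, with 202 lost more slowly and 19 faster. At LPS 6 h the medians of the same classes were 0.04 and 0.03, and rho was -0.03.

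The trend at 3 h had opposite signs in the 2 genotypes. The WT rate fell with GC content (rho -0.26) and the ΔM rate rose with it (rho 0.33), whereas at 6 h both rose (rho 0.16 in WT and 0.18 in ΔM). The level ratio of ΔM to WT before ActD also depended on GC content at LPS 3 h (rho -0.45) but little at LPS 0 h (rho 0.03) or 6 h (rho -0.01). A pseudocount of 1 FPKM was used in the 0 h ratio only. Set against the same genotype at 0 and 6 h, the 3 h level fell with GC content in ΔM (rho -0.35) but hardly in WT (rho 0.02). Since the slope of 3 evenly spaced points rests on the first and last, a shift at either end enters the rate directly. By the fitted rates, the level ratio after 90 min also depended on GC content, with the opposite sign (rho 0.24). Which end carries the trend was not tested. The part of the composition trend in the differences was not tested on single libraries, and the main results below are therefore given as deposited and also after subtracting the median of the members in the same class of GC content (GC-centred).

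**Figure D1:**
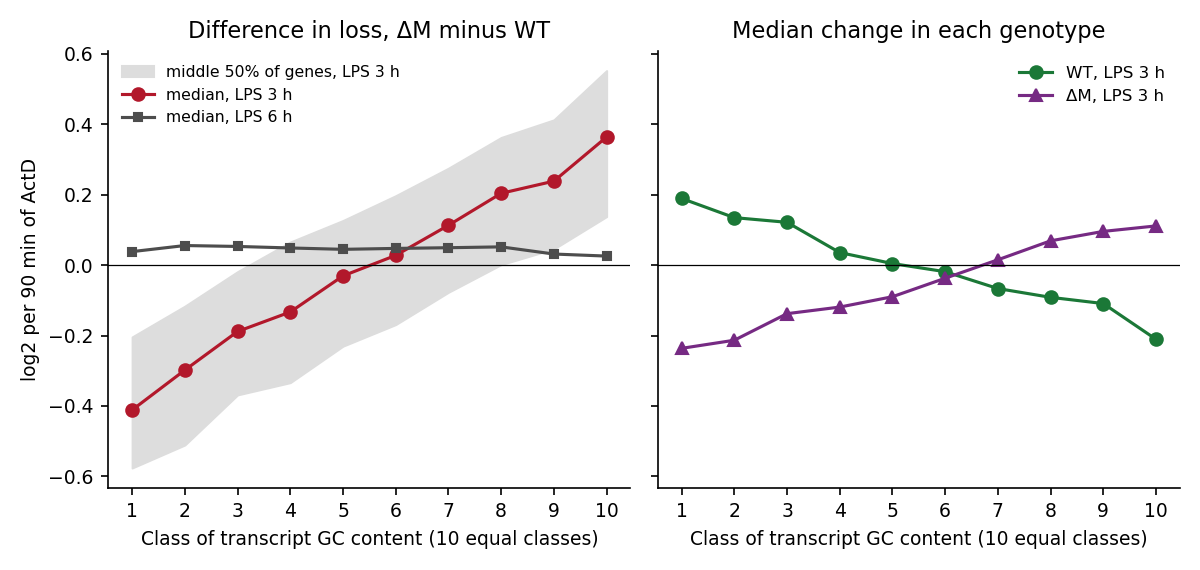
The left panel plots the median difference in loss (ΔM minus WT, log2 per 90 min of ActD) for members in 10 classes of transcript GC content at LPS 3 h (circles, with the middle 50% of genes shaded) and LPS 6 h (squares), and the right panel the median change in each genotype at LPS 3 h. The 3 h median climbs from -0.41 to 0.36 while the 6 h median stays between 0.03 and 0.06, and the WT and ΔM curves at 3 h cross.

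Length of the transcript was a second axis. In the shortest of 5 length classes (204 to 1559 bases) the median difference was -0.20, and in the other classes it lay between 0.00 and 0.04. After GC-centring, the difference rose with length (rho 0.40), from a median of -0.25 in the shortest to 0.11 in the longest class. The width of the distribution changed little with expression, since 95% of members at 5 to 10 FPKM lay between -0.99 and 0.72 and 95% of those at 200 FPKM or more between -0.89 and 0.73.

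Most mRNAs were stable at LPS 3 h in both genotypes. The deposited tables call an mRNA stable when its half-life reaches 180 min, and 5432 members (78.5%) were stable in WT and ΔM. A further 780 were unstable in both, 361 in WT only and 348 in ΔM only. Among the 780 unstable in both, the half-life was longer in ΔM for 505, with a median ratio of 1.14. At LPS 6 h, 782 were unstable in both, of which 667 had the longer half-life in ΔM (median ratio 1.23), while 411 were unstable in WT only and 63 in ΔM only. The fastest turnover at 3 h was that of Dusp2, a phosphatase of MAP kinases, with half-lives of 11.8 min in WT and 13.8 min in ΔM.

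Over all 6921 members the median difference in loss was -0.02 (SD across genes 0.41). By at least 0.5, 530 mRNAs (7.66% of those compared) were lost more slowly in ΔM and 930 (13.4%) faster. By at least 1, 19 (0.275%) were lost more slowly and 137 (1.98%) faster. After GC-centring, 237 (3.7% of 6402) were lost more slowly by at least 0.5 and 495 (7.73%) faster, of which 333 lay in the shortest length class. At LPS 6 h the balance was the other way, with 189 (2.73%) slower and 56 (0.809%) faster.

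**Figure D2:**
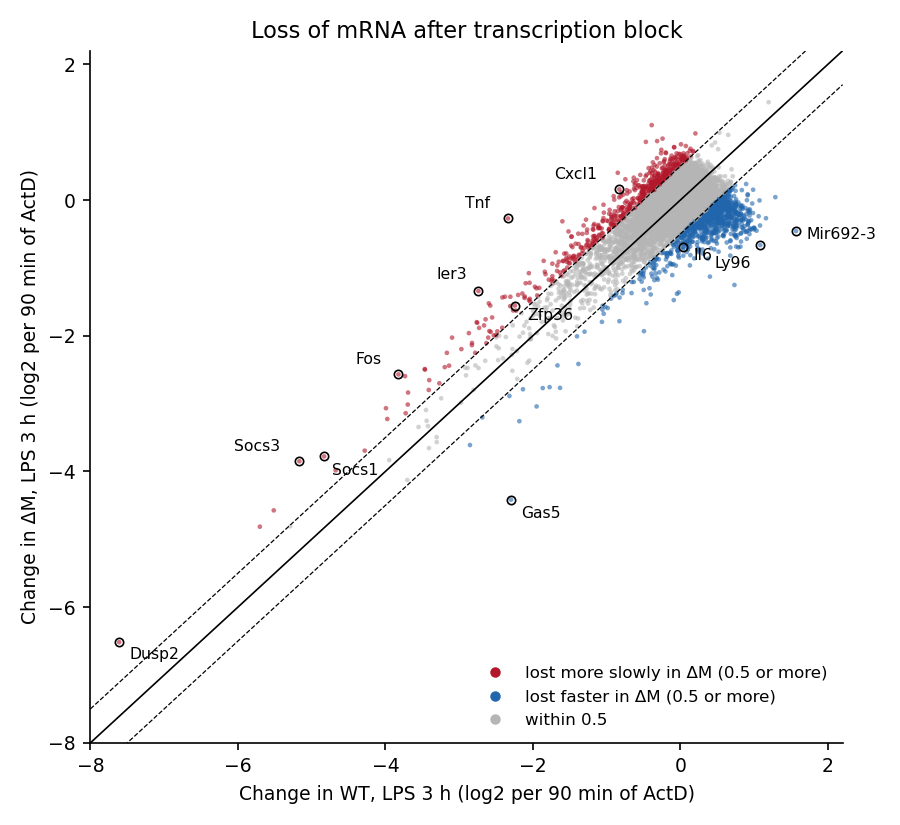
Each point is 1 of 6921 mRNAs, with its change over 90 min of ActD at LPS 3 h in WT (x axis) and ΔM (y axis), both on a log2 scale. Points above the upper dashed line were lost more slowly in ΔM by at least 0.5 (530, red) and those below the lower one faster (930, blue), and Tnf stands farthest above the diagonal and Gas5 farthest below it.

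Tnf, the cytokine mRNA best known as a target of TTP, had the largest positive difference of all members. Its half-life was 38.5 min in WT, while in ΔM it was stable, and by the fitted rates 19.8% of the mRNA was left after 90 min in WT against 82.8% in ΔM. The difference was 2.07 on the log2 scale, and 2.04 after GC-centring. At LPS 6 h it was 3.75, with half-lives of 20.3 min in WT and 131 min in ΔM, again the largest of all members. Its longest annotated 3′ UTR of 764 bases held 8 copies of TATTTAT, of which 5 are in the 30 bases printed above.

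Among the 15 largest positive differences, 4 more mRNAs stood at 0.86 or more as deposited, after GC-centring and at 6 h. Ier3, an early response gene that protects from apoptosis, had a half-life of 32.9 min in WT and 67.1 min in ΔM, a difference of 1.40 (1.19 GC-centred, 1.84 at 6 h). Fos, a subunit of the transcription factor AP-1, went from 23.5 to 35.0 min, a difference of 1.25 (1.23 GC-centred, 1.13 at 6 h). Prdm1, a transcriptional repressor, went from 24.1 to 34.7 min (1.14, 1.33 GC-centred, 0.95 at 6 h). Ppp1r15a, the stress-induced subunit that directs a phosphatase to eIF2α, went from 29.1 to 44.4 min (1.07, 0.86 GC-centred, 0.91 at 6 h).

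Socs3 and Dusp2 belonged to the same 15 largest differences but were smaller at 6 h. Socs3, the feedback inhibitor of cytokine receptor signalling, had a half-life of 17.4 min in WT and 23.4 min in ΔM at 3 h, a difference of 1.32 (0.95 GC-centred) that stood at 0.63 at 6 h. Dusp2 differed by 1.09 (0.73 GC-centred) at 3 h and by 0.00 at 6 h. Because both mRNAs were nearly gone after 90 min, with 2.78% and 0.512% left in WT, small shares of remaining RNA set these slopes. The same limit holds for Dusp1 (2.19% left in WT) and Socs1 (3.51%), named below. It also holds for Fos (7.07% left of 22.1 FPKM in WT), Prdm1 (7.52% of 14.4 FPKM) and Ptger4 (9.05% of 15.7 FPKM), which started from low levels.

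The remaining mRNAs among the 15 largest were 1810049J17Rik (1.49), Kctd17 (1.32), Cdt1 (1.29), Gm17201 (1.25), Pianp (1.18), Rpsa-ps2 (1.15), Hlx (1.08) and Mkl1 (1.05). Cdt1 licenses DNA replication, and Hlx and Mkl1 encode transcription regulators. All had a difference under 0.4 in size at 6 h except 1810049J17Rik, which stood at -0.49. Kctd17, Cdt1, Pianp, Hlx and Mkl1 had transcripts of 58.6% to 62.0% GC and no TATTTAT in the longest 3′ UTR, and GC-centred values of 0.69 to 0.96. Rpsa-ps2 is a pseudogene whose reads can come from its parent gene, so its value is uncertain. By the fitted rates, 1810049J17Rik, Kctd17, Pianp, Rpsa-ps2 and Gm17201 stood at 215%, 181%, 183%, 187% and 132% of the start in ΔM. They thus gained share in ΔM and lost it in WT. With Cdt1 they were also near the minimum, at means of 5.255 to 8.44 FPKM.

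**Figure D3:**
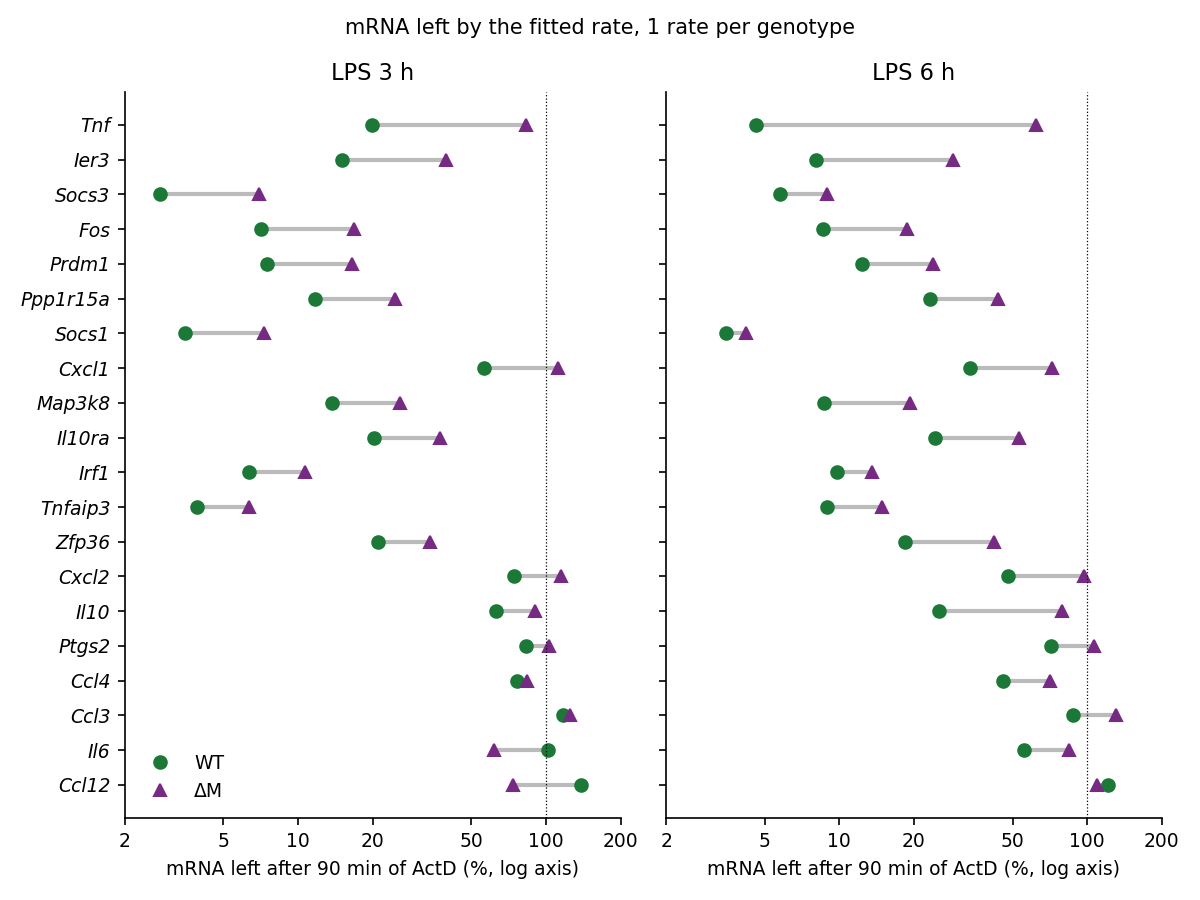
The panels plot, for 20 mRNAs, the percentage left after 90 min of ActD by the fitted rate at LPS 3 h and LPS 6 h on a log axis, with circles for WT, triangles for ΔM and 1 value per genotype and time. At 3 h Tnf stands at 19.8% in WT and 82.8% in ΔM, Ccl3 and Ccl4 hardly differ, and Il6 and Ccl12 have the lower value in ΔM.

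Feedback inhibitors of inflammatory signalling had mostly positive differences, in 18 of 21 members. Of these 21, 10 were lost more slowly in ΔM (47.6%, against 7.66% of all members) and 1 faster (4.76%, against 13.4%). The median was 0.48 (0.37 GC-centred) beside -0.02 over all mRNAs. After GC-centring again 10 were slower, where 3.7% of all members were, with Nfkbiz (0.50) in place of Sbno2 (0.22). Besides Ier3, Socs3 and Dusp2 these included Socs1 (18.6 to 23.8 min, difference 1.05), which blocks JAK kinases, Nfkbid (0.97), an atypical IκB, Cish (0.96), Dusp1 (16.3 to 19.7 min, 0.94), the phosphatase of p38, Zc3h12a (48.9 to 85.1 min, 0.78), the endonuclease Regnase-1, and Tnfaip3 (19.3 to 22.6 min, 0.69), the deubiquitinase A20. The GC-centred values of these last 6 were 0.54 to 0.74. Tnip3, a partner of A20, was the member lost faster, at -0.67 (-0.26 GC-centred). At 6 h the median of this list was 0.27, with 6 slower and none faster, and Dusp1 (1.09), Tnfaip3 (0.73) and Nfkbid (0.68) were again past 0.5, while Socs1 stood at 0.27 and Cish at -0.22.

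In the list of immediate early transcription factors, all 13 members had a positive deposited difference, and 7 (53.8%, against 7.66% of all members) were at 0.5 or more, with a median of 0.54 (0.30 GC-centred, 0.41 at 6 h). After GC-centring 5 were past 0.5 and Ier2 (-0.02) and Jun (-0.11) were below 0, and at 6 h Jund, Maff, Atf4 and Ier2 were negative. After Fos the largest were Junb (24.4 to 31.7 min, 0.86, 0.49 GC-centred), Klf4 (77.1 min to stable, 0.81, 0.61 GC-centred) and Irf1 (22.6 to 27.9 min, 0.75, 0.63 GC-centred). Jun itself stood at 0.09. The median GC content of these transcripts was 54.7%, in the range where the median of all members was positive, and most GC-centred values are the smaller ones. Klf6 went the other way, from 0.14 as deposited to 0.56 GC-centred.

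As deposited, cytokines and chemokines held mRNAs with slower and mRNAs with faster loss. Of 13 cytokines, 2 were lost more slowly, Tnf and Tnfsf9 (42.6 to 63.3 min, 0.69), and 3 faster, Ifnb1 (-0.85), Il6 (-0.73) and Il18 (-0.53). These were 15.4% and 23.1%, against 7.66% and 13.4% of all members. Of 18 chemokines, 5 were slower, Cxcl1 (0.99), Cxcl3 (0.71), Cx3cl1 (0.63), Cxcl2 (0.63) and Ccl22 (0.57), and 5 faster, namely Ccl8 (-1.18), Ccl12 (-0.92), Cxcl9 (-0.80), Ccl7 (-0.79) and Cxcl11 (-0.71). Each side was 27.8% of the list. After GC-centring 2 cytokines were slower and 1 faster, and 4 chemokines slower and 2 faster, and Cx3cl1 stood at 0.40. Over all members 3.7% were slower and 7.73% faster on that scale. With length included, 2 cytokines were slower and none faster, and 6 chemokines slower and 1 faster. The medians were -0.12 for cytokines and -0.18 for chemokines as deposited, and 0.01 and 0.09 after GC-centring, so that the sign of either median depended on the scale.

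Within the chemokines, the neutrophil attractants Cxcl1, Cxcl2 and Cxcl3 had the larger values after GC-centring, at 1.17, 0.93 and 1.01. Cxcl1 had a half-life of 109 min in WT and was stable in ΔM at 3 h, and 57.3 min and stable at 6 h. Cxcl2 and Cxcl3 were stable in both genotypes at 3 h but had WT half-lives of 84.7 and 104 min at 6 h. Ccl3 and Ccl4 stood at 0.10 and 0.13 at 3 h (0.29 and 0.16 GC-centred, 0.61 and 0.53 centred on GC content and length) and at 0.58 and 0.63 at 6 h. The monocyte attractants Ccl7 and Ccl12 had 135% and 139% of the starting value after 90 min in WT and 77.9% and 73.6% in ΔM, and at 6 h differed by 0.13 and -0.14.

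Il6 changed its sign between the 2 times. At LPS 3 h it stood at 102% of the starting value after 90 min in WT and at 61.7% in ΔM, a difference of -0.73 (-0.32 GC-centred). At LPS 6 h it had a half-life of 106 min in WT and was stable in ΔM, a difference of 0.60. Its transcript had 35.1% GC, in the GC-poorest class, and after centring on GC content and length together the 3 h value was -0.05. Il10, the anti-inflammatory cytokine, had a half-life of 135 min in WT and was stable in ΔM at 3 h (0.53, 0.82 GC-centred), against 45.3 min and stable at 6 h (1.65).

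The list of genes of the interleukin 10 axis and of resolution included Il10ra, with half-lives of 39.0 and 63.1 min (0.88, 0.77 GC-centred, 1.12 at 6 h), Bcl3 (65.2 to 139 min, 0.73, 0.37 GC-centred) and Il4ra (61.5 to 105 min, 0.61, 0.40 GC-centred). Of 13 members of this list 7 were slower (53.8%, against 7.66% of all members) and 2 faster (15.4%, against 13.4%). The faster ones were the mannose receptor Mrc1 (-0.60) and the scavenger receptor Msr1 (-0.56). The median was 0.53 as deposited but 0.19 after GC-centring, when 3 remained past 0.5.

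Among the enzymes and signalling genes, Map3k8, the kinase that links TLR4 to ERK, led the NF-κB list with half-lives of 31.4 and 45.9 min (0.91, 1.09 GC-centred, 1.16 at 6 h), although its longest 3′ UTR held no TATTTAT. Of 22 members of that list 4 were slower (18.2%, against 7.66% of all members) and 1 faster, and the median was 0.08 (0.08 GC-centred). After GC-centring Map3k8 was the 1 slower member, with Ticam1 at 0.42, Rela at 0.23 and Nfkb2 at 0.22. The member lost faster was Ly96, the MD-2 subunit that binds LPS with TLR4, at -1.75 (-1.34 GC-centred, -0.40 at 6 h). Of 13 prostaglandin, nitric oxide and itaconate enzymes 3 were slower and 1 faster (23.1% and 7.69%, against 7.66% and 13.4% of all members). Their median was 0.15 (0.24 GC-centred, 2 slower and none faster). Ptgs2, the inducible cyclooxygenase, stood at 0.31 (0.72 GC-centred, 0.58 at 6 h) and Irg1, which makes itaconate, at 0.07.

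Both relatives of TTP in the table were lost more slowly in ΔM. Zfp36l1 went from 108 min to stable (0.73, 0.76 GC-centred) and Zfp36l2 from 82.0 to 172 min (0.57, 0.37 GC-centred), with 0.43 and 0.65 at 6 h. The Zfp36 transcript remaining in ΔM had a half-life of 57.9 min against 40.1 min in WT (0.69, 1.19 at 6 h). How much of that transcript carries the deletion was not tested. Over the 12 members of the list of AU-rich element binding proteins, 4 were slower (33.3%, against 7.66% of all members) and 2 faster (16.7%, against 13.4%). Their median was -0.06, and after GC-centring 3 were slower and none faster, with a median of 0.30. Plekhg2, the gene next to Zfp36, was higher in ΔM (269 against 16.0 FPKM) and differed in loss by 0.55 (0.18 GC-centred, -0.02 at 6 h). Of the 22 members of the deadenylation and decay machinery, through which TTP acts, 2 were slower and 2 faster (9.09% each, against 7.66% and 13.4% of all members), with a median of -0.07. Cnot3 (0.79) and Tob2 (0.57) were the slower ones, and Cnot6 (-0.58) and Exosc9 (-0.51) the faster ones. After GC-centring the median was 0.07, with 4 slower, among them Cnot4 (0.87), and none faster (Cnot6 -0.17, Exosc9 -0.21). With length included it was -0.02, with 2 slower and none faster.

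**Figure D4:**
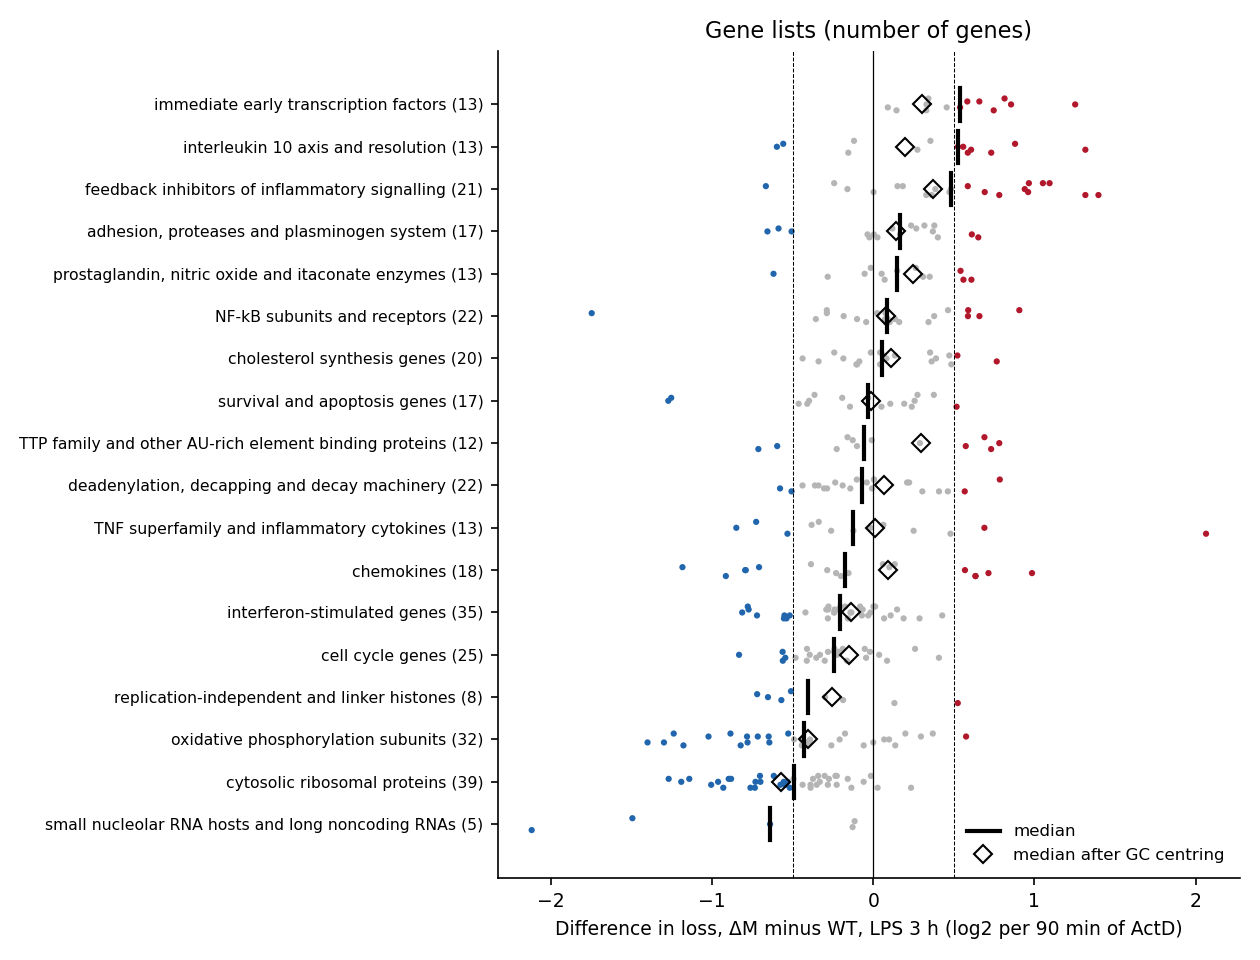
Each row is a gene list with its number of members, each point the difference in loss of 1 mRNA at LPS 3 h (ΔM minus WT, log2 per 90 min of ActD, red at 0.5 or more and blue at -0.5 or less), the bar the median and the open diamond the median after GC-centring. Immediate early factors (0.54) and feedback inhibitors (0.48) lie to the right, and ribosomal proteins (-0.50) and respiratory chain subunits (-0.43) to the left, and the diamonds of cytokines and chemokines cross to the right of 0.

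The mRNAs lost faster in ΔM included many of ribosomal proteins and the respiratory chain. Of 39 cytosolic ribosomal protein mRNAs, 19 were lost faster (48.7%, against 13.4% of all members) and none more slowly. The median was -0.50 (-0.57 GC-centred, -0.34 centred on GC content and length, -0.10 at 6 h), and with length included 12 were faster. Rpl7 had 188% of its starting share after 90 min in WT and 78.0% in ΔM (-1.27), so that it gained share in WT and lost it in ΔM. Of 32 subunits of oxidative phosphorylation, 13 were lost faster (40.6%) and 1 more slowly (Atp5d, 0.58). The median was -0.43 (-0.40 GC-centred, -0.27 centred on GC content and length, -0.03 at 6 h), and with length included 8 were faster. Cox7a2 (-1.40), Ndufa5 (-1.30) and Ndufa2 (-1.24) were the most extreme. None of the ribosomal protein mRNAs and none of Cox7a2, Ndufa5 and Ndufa2 had a half-life under 180 min in either genotype at 3 h.

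Gas5, a long noncoding RNA that hosts small nucleolar RNAs and whose turnover depends on translation, had the largest difference of this sign at both times. Its half-life was 39.2 min in WT and 20.4 min in ΔM at 3 h (-2.12), and 70.8 and 29.3 min at 6 h (-1.80). Before ActD it was low at 3 h, at 3.28 (WT) and 7.31 (ΔM) FPKM, and only the ΔM level was above the minimum. Snhg3, another host, differed by -1.50 at 3 h but by 0.22 at 6 h. The other 13 of the 15 most negative were Ly96, Slirp, a mitochondrial RNA-binding protein (-1.44), Rpl34 (-1.43), Zfp87 (-1.44), Gadl1 (-1.47) and a group of 8 from -1.44 to -2.03 made up of predicted genes, pseudogenes and a microRNA locus. Of these, Zfp87 (-0.88), Gm17711 (-0.85), Gm6274 (-0.60) and Gm6265 (-0.53) also stood below -0.5 at 6 h. Of 63 pseudogenes with -ps in their symbol, a group formed after the values were seen, 27 were faster (42.9%, against 13.4% of all members) and 2 slower. Their reads cannot be told apart with confidence from those of their parent genes.

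Interferon-stimulated genes included no mRNA with slower loss, against 7.66% of all members. Of 35 members 8 (22.9%, against 13.4% of all) were lost faster, among them the GTPase Iigp1 (-0.78), Ifi44 (-0.81), Xaf1 (-0.77) and Trim30a (-0.72), with a median of -0.20 (-0.14 GC-centred, 0.02 at 6 h). After GC-centring only Xaf1 remained past -0.5. Iigp1 and Ifi44 were higher in ΔM before ActD (25.7 against 9.31 and 28.8 against 6.20 FPKM), as was Ifnb1 (186 against 26.5 FPKM). Histones, cell cycle genes and survival genes had medians of -0.41, -0.24 and -0.03 (-0.26, -0.15 and -0.02 GC-centred), and cholesterol synthesis and adhesion genes of 0.05 and 0.17 (0.11 and 0.14 GC-centred). Bcl2a1b and Bcl2a1d, near-identical copies of an anti-apoptotic gene whose reads may be split between them, stood at -1.27 and -1.25.

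The mRNAs crosslinked to TTP in the 3′ UTR at LPS 3 h were next compared with other crosslink lists. Of 136 such members, 30 were lost more slowly in ΔM (22.1%, against 7.66% of all members) and 10 faster (7.35%, against 13.4%), with a median of 0.13. After GC-centring, 22 were slower and 3 faster, with a median of 0.17. Of 154 members crosslinked in the 3′ UTR to HuR, which also binds U-rich elements, but not to TTP, 6 were slower (3.9%) and 10 faster (6.49%). Both shares were below those of all members, and the median was -0.03. After GC-centring 4 were slower and none faster, with a median of 0.09. Of 273 members crosslinked to TTP in introns, 7 were slower (2.56%, against 7.66% of all members) and 30 faster (10.99%, against 13.4%). These shares were also below those of all members, and the median was -0.10. After GC-centring 10 were slower and 2 faster, where 3.7% and 7.73% of all members were, with a median of 0.06. With length included, however, 6 were slower and 8 faster. The 50 members crosslinked in the 3′ UTR at LPS 6 h but not listed so at 3 h had a median of -0.15 (0.04 GC-centred). Of these, 6 were slower (12%) and 9 faster (18%), and 5 and 3 after GC-centring. Tnf and Fos are in this last group, since the 3 h list as used here does not hold them. The paper, however, reports TTP binding to Tnf at both times, unchanged between 3 and 6 h. For Fos it reports a strong increase in binding between these times. The lists hold each gene under its strongest site, and may be partial.

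Among the 136, those whose strongest site held the full motif stood higher. In 28 genes, with a median site of 31 bases, it contained TATTTAT. Of these 11 were lost more slowly and 1 faster, with a median of 0.23 (0.30 GC-centred, 0.32 at 6 h). In 18 it contained ATTTA but not TATTTAT (median 0.10, 4 slower and 1 faster), and in 90, with a median site of 6 bases, neither (median 0.12, 15 slower and 8 faster). A site shorter than the motif cannot hold it, so these classes also follow site length, and motif and length were not told apart. Cxcl1 is in the last class, though its longest 3′ UTR held 6 copies of TATTTAT. The sites of Ppp1r15a, Cish, Il10ra and Cxcl2 printed above carry 3 or 4 copies, and these mRNAs differed by 1.07, 0.96, 0.88 and 0.63. A site with the motif was also present in Ccl4 (0.13), Ccl3 (0.10) and Plek (-0.42, -0.01 GC-centred), which were not past 0.5 at 3 h as deposited or GC-centred.

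Counted over the whole longest 3′ UTR, copies of TATTTAT (on the transcript strand, overlaps counted) rose with the 3 h difference only after GC-centring. Of the 6337 members with an annotated 3′ UTR, 1692 (26.7%) held at least 1 copy and 418 (6.6%) the longer TTATTTATT. With 0, 1, 2, 3 and at least 4 copies the deposited medians were 0.00, -0.05, -0.07, -0.15 and 0.00. The GC-centred medians were -0.03, 0.06, 0.11, 0.15 and 0.26, and those at 6 h 0.03, 0.07, 0.13, 0.16 and 0.22. With length included they were smaller at 3 h, at -0.01, 0.01, 0.04, 0.07 and 0.17. In the same order, the share of mRNAs lost more slowly by at least 0.5 after GC-centring was 2.52%, 4.33%, 10.4%, 13.95% and 22.6%. Transcripts with more copies had a lower GC content (median 51.9% with no copy and 43.8% with 3) and longer 3′ UTRs (866 and 3025 bases). The 62 members with at least 4 copies included Tnf, Ier3, Prdm1, Ppp1r15a, Cxcl1, Cxcl2 and Il10 among the slower ones.

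Short-lived mRNAs had the larger differences. To avoid a class built from the rates compared, members were grouped by their WT half-life at LPS 6 h, which came from separate libraries. The difference is an absolute change in rate, so the same proportional change in half-life gives a larger value in a shorter-lived mRNA. Lengthened by a similar factor in ΔM, Tnfaip3 (19.3 to 22.6 min) differed by 0.69 and Irf9 (114 to 132 min) by 0.11. Classes taken from 6 h do not remove this, and its part in the gradient was not tested. The 33 members under 30 min had a median difference at 3 h of 0.69 (0.56 GC-centred, 0.49 centred on GC content and length), and 21 of them (63.6%) were lost more slowly and 1 faster, the kinase gene Clk1 (-1.08). The medians then went to 0.26 at 30 to 60 min (162 members), 0.13 at 60 to 90 min (240), 0.13 at 90 to 120 min (301), -0.03 at 120 to 180 min (457) and -0.04 for the 5728 stable members. After GC-centring the medians went from 0.56 under 30 min to -0.02 in the stable class.

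Both features could be set side by side. Of mRNAs with a WT half-life under 60 min at 6 h, the 86 with TATTTAT had a GC-centred median of 0.44 at 3 h, and 37 of them (43.0%) were slower after GC-centring, against 0.20 and 23 (23.2%) for the 99 without. Among mRNAs stable at 6 h, the GC-centred medians were 0.04 for the 1236 with and -0.05 for the 3976 without the motif, and 43 (3.48%) and 66 (1.66%) were slower. With length included the medians under 60 min were 0.37 with and 0.15 without the motif, and those of stable mRNAs -0.002 and -0.02.

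The difference at LPS 3 h was related only in part to that at LPS 6 h. Across the 6921 members rho was 0.21 (Pearson r 0.25), and 0.26 after GC-centring (r 0.31), where the points share a gene but not a library. Of the 530 mRNAs lost more slowly at 3 h, 50 (9.43%, against 2.73% of all members) were so at 6 h, which is 26.5% of the 189 of that time, and 7 were lost faster at 6 h. After GC-centring, 46 of 237 (19.4%) were shared, and 1 was faster at 6 h. Of the 930 lost faster at 3 h, 28 (3.01%, against 0.809% of all members) were so at 6 h, and of the 495 after GC-centring, 8 (1.62%).

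A core of 39 mRNAs was past 0.5 at 3 h, at 3 h after GC-centring and at 6 h. Besides the mRNAs named above, it held the growth differentiation factor Gdf15 (1.05 at 3 h, 0.72 at 6 h), Rgs16 (0.98, 0.54), which dampens G protein signalling, the prostaglandin E2 receptor Ptger4 (0.97, 0.78), endothelin-1 (Edn1, 0.95, 1.81), Phlda1 (0.87, 0.65), the AP-1 subunit Fosl2 (0.58, 0.58) and the phosphodiesterase Pde4b (0.52, 0.71). The rest were Sgsh, Spsb1, Zswim1, Sipa1l3, B4galt3, Rasgef1b, Gcc1, Mamld1, Pou2f1, Rnd3, Creb5, Arhgef3, Usp42 and Ncoa2. Among these, Sgsh, Zswim1, Rasgef1b, Rnd3 and Usp42 held no TATTTAT in the longest 3′ UTR. At 6 h Sgsh (2.54 and 1.77 FPKM in WT and ΔM) and Mamld1 (1.81 and 1.72) were low. Of the mRNAs that the study followed singly or showed as examples, Tnf, Fos, Cxcl1, Cxcl2 and Il10 belonged to this core, Zfp36l2 and Irf1 missed it by 1 criterion (0.37 GC-centred and 0.47 at 6 h), and Ccl3, Ccl4, Irg1, Sdc4 (0.37), Ptgs2, Il6 and Ccl12 were not lost more slowly at 3 h as deposited.

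**Figure D5:**
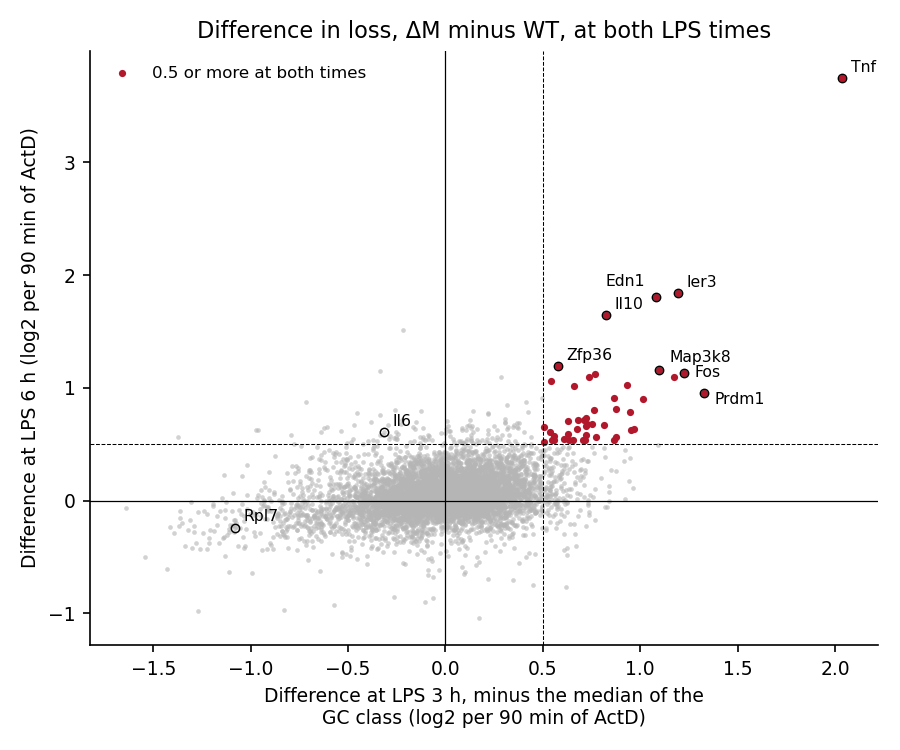
Each point is 1 of 6402 mRNAs, with its GC-centred difference in loss at LPS 3 h (x axis) and its difference at LPS 6 h (y axis), both ΔM minus WT in log2 per 90 min of ActD. The 46 red points are at 0.5 or more at both times, with Tnf at 2.04 and 3.75, while Rpl7 lies at -1.08 and -0.24 and Il6 at -0.32 and 0.60.

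Levels before ActD varied among the mRNAs lost more slowly. As log2 ratios of ΔM to WT at LPS 3 h, Cxcl2 stood at 1.86, Cxcl1 at 1.34, Il10 at 1.26, Ier3 at 0.95 and Tnf at 0.55, whereas Socs3 (-0.08), Prdm1 (-0.34), Ppp1r15a (-0.25), Irf1 (-0.32) and Tnfaip3 (-0.06) were at or below 0. At LPS 6 h Cxcl1 (4.19), Cxcl2 (4.26), Cxcl3 (2.71), Il10 (2.39) and Tnf (1.50) were higher in ΔM. The 0 min level enters the 3 h difference in loss, and the 2 were inversely related (rho -0.64 over 6921 mRNAs, from the same libraries), so only the 6 h level ratio is from separate libraries, with rho -0.19 to the 3 h difference.

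Defining macrophage markers were present in both genotypes, with Csf1r at 273 and 236 FPKM, Adgre1 at 189 and 171, and Cd68 at 2939 and 2739 in WT and ΔM at LPS 3 h. The summed level of the 6 macrophage markers was 8399 FPKM in WT and 6378 in ΔM, where Lyz2 (4841 and 3098) made most of the gap. Of the 16 markers of T cells, B cells, neutrophils, fibroblasts, dendritic cells and erythroid cells in the table, only Col1a1 reached 1 FPKM in both genotypes (1.50 and 1.68), and the sum of each list was at most 2.71 FPKM.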

How the data were processed

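Decay rates (per min) and half-lives (min) were deposited as 1 value per gene, genotype and LPS time. Per the study's methods, SENSE mRNA-Seq reads were mapped with GSNAP to GRCm38/mm10 (version not given in the sources used here) and transcripts were quantified with Mix2, and the authors fitted a linear model of log2 FPKM over 0, 45 and 90 min of ActD with 3 replicates. A half-life of 180 min or more is written as stable. The FPKM values deposited by the authors are 1 per genotype and LPS time. Their fold changes and FDRs (6 columns, from DESeq2) were not used.

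The difference in loss is 90 times the ΔM rate minus the WT rate, called slower or faster from 0.5 in size. GC content, length and motifs were taken from the longest GENCODE coding transcript and longest 3′ UTR on NCBIM37, which matched 92.5% and 91.6% of members by gene ID. GC-centring subtracts the median of 1 of 10 GC classes, and an added setting that of 10 GC classes by 5 length classes. The level ratio at LPS 0 h and the 3 h level set against 0 and 6 h used a pseudocount of 1 FPKM (0.1 as the alternative). The level ratios at 3 and 6 h, over all members and of single genes, used none. Crosslink lists and site sequences are the study's, and each printed site matched the genome at its coordinates. Named mRNAs were Zfp36, Plekhg2, the 15 largest differences of each sign, up to 4 of each sign per list, and the mRNAs followed by the study. Others named are the markers, the core of both times, crosslinked mRNAs and members of small counts, picked after their values were seen. Members and lists were chosen with earlier results of these data known. Calls and centring were tested on simulated data. Python 3.11.15 with pandas 2.3.3, numpy 2.4.6, scipy 1.17.1 and matplotlib 3.10.9 was used.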

Additional observations from a re-analysis of the deposited data

How the results depend on the processing

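No paired analysis was possible because the tables hold 1 pooled value per genotype and time, and for the same reason no replicate could be left out and no error was available. The counts depended on the settings. Slower mRNAs numbered 996 at a minimum of 1 FPKM, 258 at 20 FPKM, 237 after GC-centring, 230 after centring on GC content and length (a setting chosen after seeing the data) and 282 among mRNAs unstable in at least 1 genotype. Faster mRNAs numbered 1704, 387, 495, 334 and 223 under these settings, and 356 by half-lives at least 2-fold apart or stable in 1 genotype only. By at least 1, slower mRNAs numbered 94, 7 and 9 at 1 FPKM, at 20 FPKM and after GC-centring, and faster ones 332, 57 and 74, with 35 after centring on GC content and length. Other settings kept each count within 1.5 times. The minimum changes how many genes are compared, and the cause of the shift under centring was not tested. Among medians of at least 0.1 in size, the sign changed after GC-centring, and after centring on GC content and length, for cytokines (0.012 and 0.15), chemokines (0.090 and 0.28) and mRNAs crosslinked at 6 h but not at 3 h (0.038 and 0.024), and for 3 copies of TATTTAT after GC-centring (0.15). Smaller negative medians also turned positive after GC-centring. Among them were AU-rich element binding proteins (0.30), the decay machinery (0.07, but -0.02 with length) and mRNAs crosslinked to TTP in introns (0.06). The others were mRNAs crosslinked in the 3′ UTR to HuR but not to TTP (0.09) and mRNAs with 1 or 2 copies of TATTTAT (0.06 and 0.11). Il18 went to 0.15 after centring on GC content and length. Of the 159 named mRNAs, 40 fell below 0.5 in size after GC-centring and 4 rose past it. Depth per library is unknown here.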
